A study of Rattus norvegicus with 2 samples.

Results

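Transcripts of 10 genes of the Notch pathway are described here in rat oligodendrocyte precursor cells (OPCs), the dividing glia that form myelinating oligodendrocytes. The genes were taken by symbol, and they comprise 3 receptors (Notch1, Notch2 and Notch3), 4 ligands (Dll1, Dll3, Jag1 and Jag2) and 3 transcriptional targets (Hes1, Hes5 and Hey1). All 10 were among the 17202 genes listed, all had whole counts, and all reached 1 CPM (a count scaled to the size of its library) in at least 1 library, as did 13505 genes in total. The table gives them the gene identifiers 25496 (Notch1), 29492 (Notch2), 56761 (Notch3), 84010 (Dll1), 114125 (Dll3), 29146 (Jag1), 29147 (Jag2), 29577 (Hes1), 79225 (Hes5) and 155437 (Hey1). Bulk RNA sequencing covered 2 libraries, both of primary cells from wild-type rats kept in OGM culture medium. Cells of the first received amyloid-β (Aβ), the peptide that aggregates in Alzheimer's disease, at 1 µM for 2 days, and cells of the second received the solvent DMSO, for a time that the labels give only in a protocol text shared with the Aβ sample. The labels speak of adult cells in one place and of developing rats in another, both titles carry an unexplained P1, and how many animals each culture came from is not stated in the labels.

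Notch receptors are single-pass membrane proteins that are activated by Delta-like or Jagged ligands on a neighbouring cell. Ligand binding lets ADAM proteases and then γ-secretase cut the receptor, and the freed intracellular domain enters the nucleus, where it joins the DNA-binding protein RBPJ and Mastermind coactivators to switch on Hes and Hey genes. These encode basic helix-loop-helix repressors, and in the oligodendrocyte lineage Notch activity and Hes5 are known for holding precursors back from maturation.

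With 1 library per condition there was no replicate, so Aβ was not tested and the differences below could not be set against a spread between cultures. The libraries held 15117102 (Aβ) and 15019416 (DMSO) estimated counts. Ratios are CPM in Aβ over CPM in DMSO, with exact 95% Clopper-Pearson intervals that cover counting error only. Log2 ratios carry a pseudocount of 0.5 CPM, which understates differences of low genes. The cell type label was checked against marker genes in TPM, a unit that also corrects for transcript length and so lets genes be compared. Of 9 OPC markers 8 were listed, at 1.91 to 850 TPM, with a summed level of 2185 TPM in Aβ and 2109 TPM in DMSO. All 7 astrocyte markers were also present (9.48 to 839 TPM, summing to 1904 and 1815 TPM), among them Gfap at 839 and 793 TPM. Neural progenitor markers summed to 534.9 and 504.9 TPM (5 of 5 listed), neuronal markers to 459.8 and 441.0 TPM (6 of 6) and oligodendrocyte markers to 60.4 and 58.0 TPM (6 of 6). Microglial (6 of 6 listed, 8.0 and 8.8 TPM), endothelial (4 of 6, 1.0 and 1.2 TPM) and pericyte or fibroblast markers (5 of 6, 3.2 and 3.4 TPM) were low. Rgs5 and Lum were at 0 in the Aβ library and had only 1 and 2 counts in the DMSO library. Which cells of the culture carried the Notch transcripts was not tested, and in bulk RNA fewer cells of a type and less RNA per cell cannot be told apart.

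The pathway was present at every step in both libraries, and the levels of its genes stood in the same order with and without Aβ. Notch1 was the highest of the 10 per unit of length, at 65.3 TPM in Aβ and 58.9 TPM in DMSO, followed by Hey1, Dll1, Hes5, Dll3, Notch2, Hes1, Notch3, Jag2 and Jag1. With Aβ, 81.3% of measured genes had a lower TPM than Notch1 and 9.97% a lower one than Jag1, and with DMSO these shares were 79.8% and 9.37%. Counting intervals of neighbours in this order overlapped for Hes5 with Dll3 and for Dll3 with Notch2 in both libraries, and for Notch1 with Hey1 and Jag2 with Jag1 in the DMSO library. The positions of those pairs are therefore not resolved. TPM depends on the length used in quantification. The length implied by count and FPKM ranged over the 10 genes from about 270 bases for Hes5 to 10403 bases for Notch2. Hes5 thus reached 32.1 TPM from 93 counts, and Notch2 22.9 TPM from 2528 counts. Among all measured genes implied lengths went down to 24 bases, so they are not full transcript lengths.

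**Figure D1:**
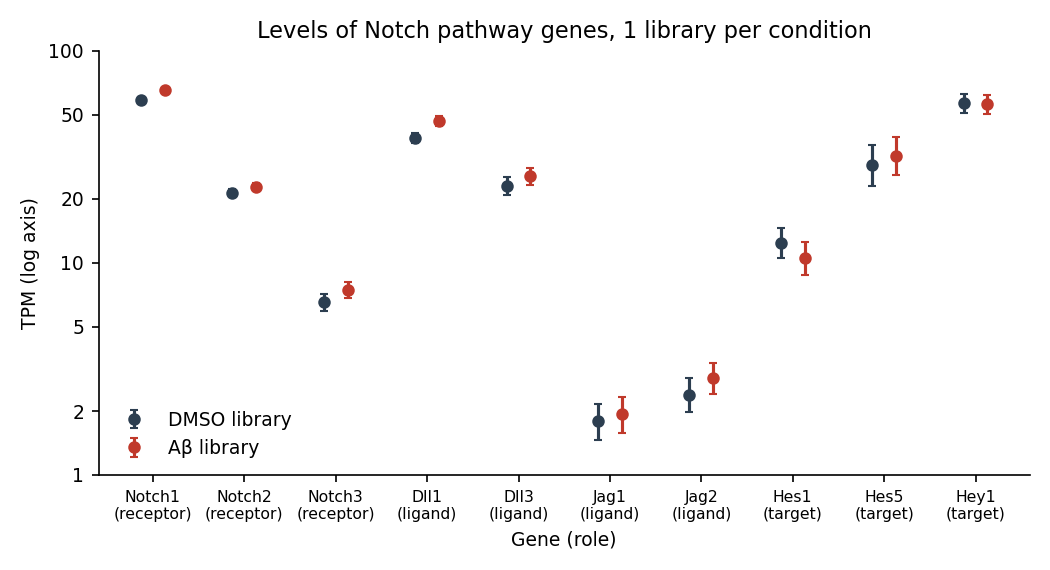
TPM of the 10 Notch pathway genes on a log axis, dark for DMSO and red for Aβ, grouped as receptors, ligands and targets. Bars are exact 95% Poisson intervals of the count, and the pairs of points lie close together beside the spread between genes, which runs from 1.79 TPM (Jag1, DMSO) to 65.3 TPM (Notch1, Aβ).

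Among the 10 genes, all 3 receptors and all 4 ligands were slightly higher in the Aβ library, most of them within counting error, while targets were divided. The log2 ratio lay above 0 for 8 of the 10 genes, beside 49.7% of all measured genes, and below 0 for Hes1 and Hey1. Their median log2 ratio was 0.11, and the median of all measured genes was -0.00078. The counting interval lay wholly above 1 for 2 of 10 (Notch1 and Dll1), beside 6.49% of measured genes, and wholly below 1 for 0 of 10, beside 6.88%. Folds were counted on the log2 scale with the pseudocount, where 0 of the 10 were at least 1.5-fold apart, beside 2.27% of measured genes, and 1 (Hes1) was at least 1.2-fold apart, beside 11.1%. Hes1 no longer reached 1.2-fold on TPM (log2 ratio -0.24), with DESeq2 size factors (-0.26), with a pseudocount of 5 CPM (-0.18) or with the length trend described below removed (-0.25), against -0.27 as reported. For 8 of the 10 the whole interval lay within 1.5-fold, near the 80.1% of all measured genes for which it did, the exceptions being Hes1 at its lower end and Jag2 at its upper end.

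**Figure D2:**
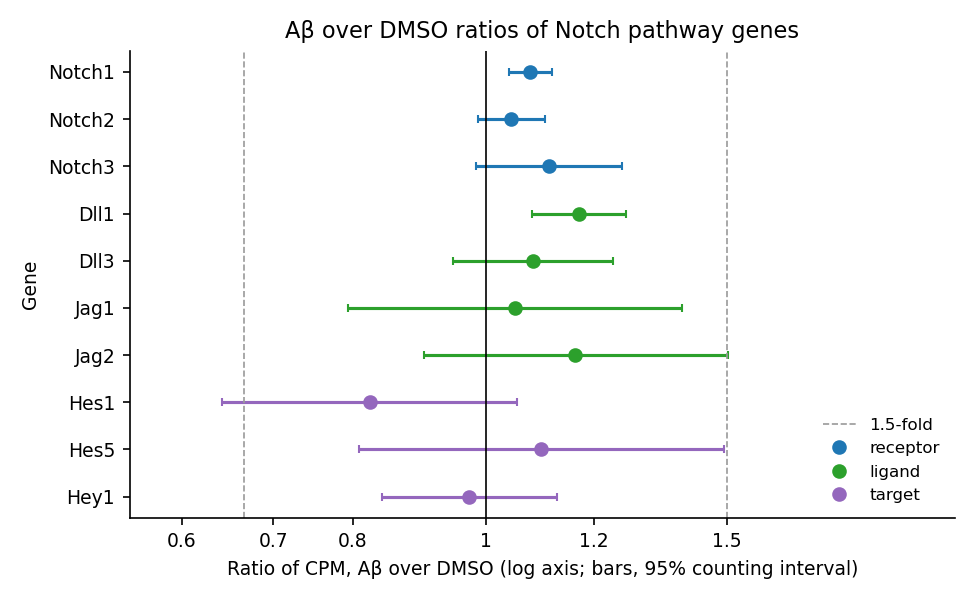
Ratio of CPM in Aβ over DMSO (log axis) for each gene, with 95% counting intervals as bars and dashed lines at 1.5-fold. Intervals of Notch1 (1.04 to 1.12) and Dll1 (1.08 to 1.27) lie wholly right of 1, and those of the other 8 genes cross it.

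Notch1, the main Notch receptor of neural precursors, had 6300 counts in Aβ and 5797 in DMSO, which is 416.4 and 386.3 CPM. The Aβ library was the higher one, by a ratio of 1.08 (1.04 to 1.12). Notch2 had 2528 and 2401 counts (22.9 and 21.3 TPM) and a ratio of 1.04 (0.987 to 1.10). Notch3, best known from vascular mural cells, had 554 and 494 counts (7.46 and 6.52 TPM) and a ratio of 1.11 (0.984 to 1.26). The makeup of the receptor pool hardly differed: Notch1 made up 68.3% of the summed receptor TPM in Aβ and 67.9% in DMSO, Notch2 23.9% and 24.6%, and Notch3 7.80% and 7.52%. Summed over the 3 receptors, 9382 counts stood against 8692 (ratio 1.07, 1.04 to 1.10), a sum that Notch1 dominates.

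These receptors have among the longest implied lengths of the table, and ratios followed implied length across all genes. Measured genes were divided into 10 bins of equal size by implied length. The shortest bin had a median log2 ratio of -0.032, and the longest, above 5667 bases, 0.038. Notch1, Notch2 and Notch3 were all in the longest bin, where their own log2 ratios were 0.11, 0.062 and 0.15. Less the median of that bin they were 0.071, 0.025 and 0.11. Depth bears on the intervals as well. Of the 3 genes of the pathway core with at least 1000 counts, 2 had an interval wholly above 1, beside 10.3% of the 4016 genes of that depth, while 11.0% of those genes had one wholly below. In the longest bin at that depth the share wholly above 1 was 22.0% of 624 genes, and Notch1 is among them and Notch2 is not. The part of length in the receptor values was not tested further.

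**Figure D3:**
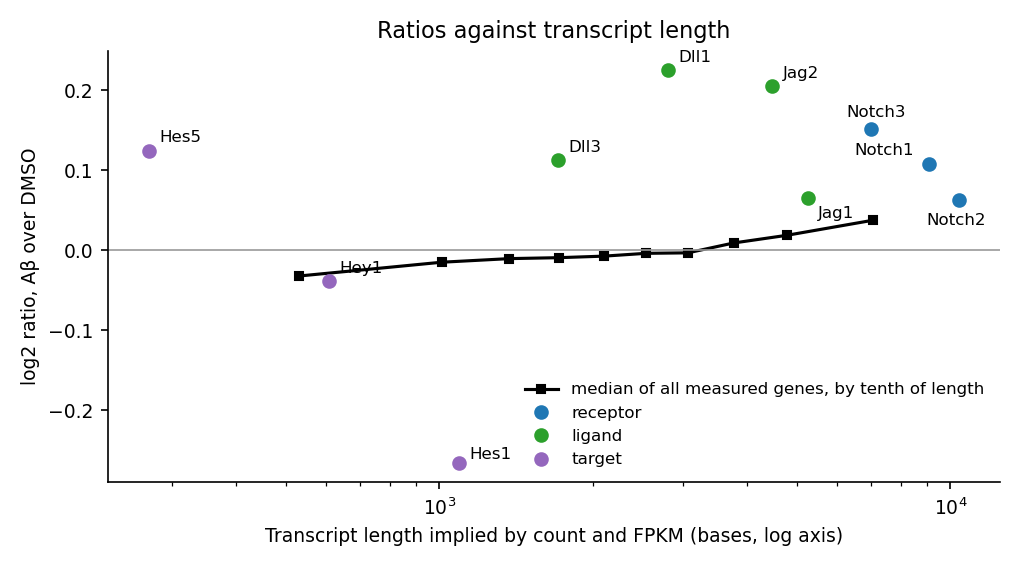
Log2 ratio of each of the 10 genes against the length implied by count and FPKM (log axis), which is not the full transcript length. Black squares give the median of all measured genes in each of 10 bins of length. The black line climbs from -0.032 to 0.038, and the receptors at the right end and all 4 ligands lie above it.

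Dll1 had the highest level of the ligands and was the only one whose counting interval left out 1. Dll1, a Delta-like ligand that activates receptors on adjacent cells, had 1387 counts in Aβ and 1176 in DMSO, or 46.7 and 38.9 TPM. Aβ was the higher library, with a ratio of 1.17 (1.08 to 1.27), close to the 1.16 of the much scarcer Jag2. The length implied for Dll1, 2794 bases, lies in a bin whose median log2 ratio was -0.0032. The log2 ratio of Dll1 was thus 0.22 as listed and 0.23 less that median. Dll3, a divergent Delta that acts within the cell that makes it and does not activate receptors on neighbours, had 464 and 425 counts (25.7 and 23.0 TPM), and its ratio was 1.08 (0.947 to 1.24).

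Both Jagged ligands were scarce. Jag1, which signals from axons and astrocytes to OPCs, had 108 and 102 counts (1.93 and 1.79 TPM) with a ratio of 1.05 (0.794 to 1.39). Jag2 had 136 and 116 counts (2.86 and 2.39 TPM) with a ratio of 1.16 (0.901 to 1.503). At these counts a difference of the size seen for Dll1 was not detectable in either Jagged gene. Delta-like ligands accounted for most of the ligand pool, Dll1 for 60.5% of its TPM in Aβ and 58.8% in DMSO and Dll3 for 33.3% and 34.8%. Summed ligand counts were 2095 and 1819 (ratio 1.14, 1.07 to 1.22), of which Dll1 gave the larger part.

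The targets lay on both sides of 1. Hey1, a repressor of the Hey family, was the most abundant target, with 363 and 370 counts (56.0 and 56.4 TPM) and a ratio of 0.973 (0.840 to 1.13). Hes5 had 93 and 84 counts (32.1 and 29.0 TPM), the higher value in Aβ, and a ratio of 1.10 (0.809 to 1.49). Hes1 had 122 and 147 counts (10.5 and 12.5 TPM) and the lowest ratio of the 10 genes, 0.823 (0.642 to 1.05). All 3 intervals crossed 1. The targets together had 578 counts in Aβ and 601 in DMSO (ratio 0.954, 0.849 to 1.07), and whether their ratio differs from that of ligands or receptors was not tested. Within the target pool Hes1 made up 10.7% of TPM in Aβ and 12.7% in DMSO, Hes5 32.5% and 29.6%, and Hey1 56.8% and 57.7%.

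**Figure D4:**
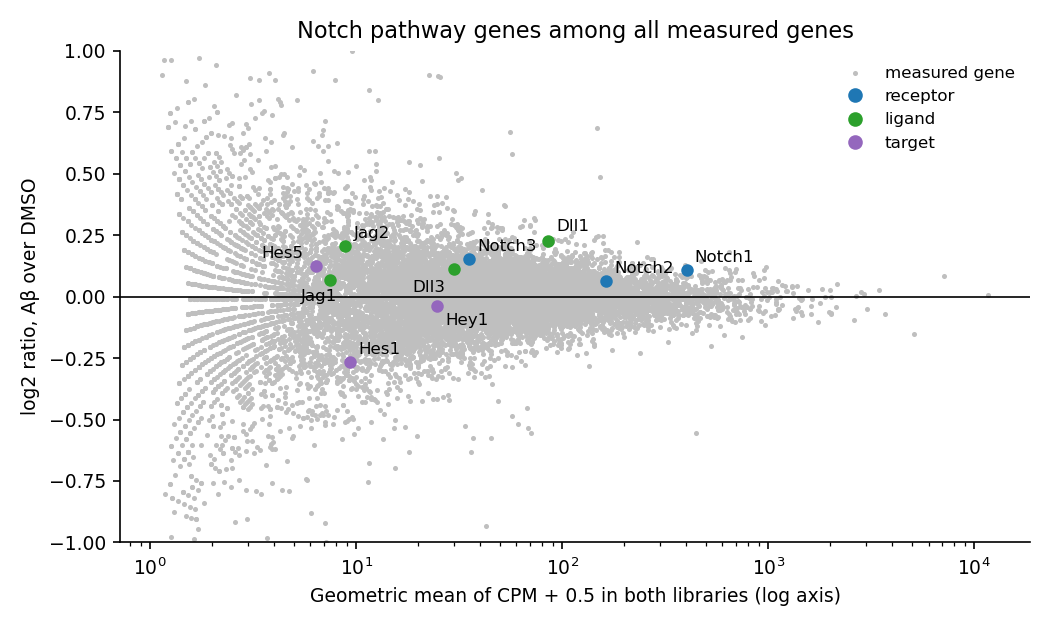
Log2 ratio of Aβ over DMSO against mean level (geometric mean of CPM plus 0.5, log axis) for measured genes in grey and the 10 Notch pathway genes in colour. Axes are cut at 1 in either direction of log2, which leaves out 91 measured genes. Grey points spread widely at low level, where Hes1, Hes5, Jag1 and Jag2 lie, and narrowly at the level of Notch1 (0.11) and Notch2 (0.062).

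The promoters of the genes were read for the letters of sites that RBPJ and Hes proteins are known to bind. RefSeq sequence of the build GRCr8, 250 bases before the annotated start, was on hand for 9 of the 10 genes, with 2 starts for Jag2. It was searched on both strands for TGGGAA, the core of the RBPJ site, and for CACNAG, the N-box bound by Hes proteins. At least 1 TGGGAA was found in 3 of the 9 genes (Hes1, Hes5 and Dll1), and each of them had 2. Across all 33469 RefSeq promoter windows of that length, 22.1% held at least 1 and 2.71% held 2 or more. CACNAG was found in 3 of the 9 genes, Hes1 (4 matches), Notch1 (4, of which 1 pair overlaps on opposite strands) and Notch3 (1). Of all windows, 37.2% held at least 1 and 8.02% held 2 or more. No match of one motif overlapped one of the other in these genes. These are matches of letters, not measured binding. Sequences are given 5′ to 3′ on the strand of the gene for the 3 genes with the RBPJ core, which is in capitals on either strand (TTCCCA is its reverse complement). They lie at chr11:84213046-84213295 on the minus strand for Hes1, at chr5:170804327-170804576 on the plus strand for Hes5 and at chr1:64993275-64993524 on the minus strand for Dll1, all in GRCr8 and not in the build of the expression table.
Hes1: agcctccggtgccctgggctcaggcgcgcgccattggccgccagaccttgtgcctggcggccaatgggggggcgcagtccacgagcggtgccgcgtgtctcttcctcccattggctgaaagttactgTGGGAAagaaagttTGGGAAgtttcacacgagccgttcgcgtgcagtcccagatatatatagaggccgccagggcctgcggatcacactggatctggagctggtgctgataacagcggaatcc
Hes5: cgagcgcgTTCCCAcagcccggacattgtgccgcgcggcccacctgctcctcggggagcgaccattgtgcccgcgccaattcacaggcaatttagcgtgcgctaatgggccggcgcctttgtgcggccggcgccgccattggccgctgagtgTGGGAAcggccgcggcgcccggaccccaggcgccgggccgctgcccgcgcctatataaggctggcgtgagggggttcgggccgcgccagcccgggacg
Dll1: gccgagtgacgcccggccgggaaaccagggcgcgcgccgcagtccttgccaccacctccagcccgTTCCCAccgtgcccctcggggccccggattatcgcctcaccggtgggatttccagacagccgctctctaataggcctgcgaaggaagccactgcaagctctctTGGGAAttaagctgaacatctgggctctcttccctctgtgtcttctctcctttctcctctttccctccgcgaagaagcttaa

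In Hes1 both matches of TGGGAA lie on the same strand and close together. They are at 123 to 118 and at 109 to 104 bases before the start. The matches of Hes5 lie on opposite strands at 242 to 237 and 98 to 93 bases. Dll1 carries its matches on opposite strands at 185 to 180 and 82 to 77 bases. Sites that depart from these letters were not searched for, so the layout of all RBPJ sites is not known from these matches. The expression ratios of these 3 genes were 1.17 (1.08 to 1.27) for Dll1, 1.10 (0.809 to 1.49) for Hes5 and 0.823 (0.642 to 1.05) for Hes1. The intervals of Hes5 and Hes1 cross 1, and a link between ratio and layout of the matches was not tested.

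Around these genes, a wider list of 83 symbols of the pathway was taken by role, of which 79 were listed in the table and 73 measured. Nrarp and Dtx1 stood under both receptor regulators and other described targets, and they count in each of these roles below. Of the 73, 38 had a log2 ratio above 0, beside 49.7% of all measured genes, and 35 below, with a median of 0.0042. The interval lay wholly above 1 for 3, beside 6.49% of measured genes, and wholly below 1 for 7, beside 6.88%. With the pseudocount 0 were at least 1.5-fold apart, beside 2.27%. Without it, the ratios of Dlk1, Hes7 and Neurog2 given below were past that fold on few counts. These shares are also the background for the counts by role below.

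All 7 measured genes of receptor cleavage had a log2 ratio above 0, beside 49.7% of all measured genes, with a median of 0.041. Psenen, a γ-secretase subunit, had 493 and 429 counts (212 and 183 TPM, ratio 1.14, 0.999 to 1.30). Psen2, one of its catalytic subunits, had 243 and 197 counts (ratio 1.22, 1.01 to 1.48), and it was the only gene of this role with an interval that left out 1. Genes of ligand endocytosis were near even as a group, with a median of 0.0047. Of these 7, 6 lay above 0, but Epn1 (0.00037), Neurl1b (0.0042) and Dnm2 (0.0047) only just, and 1 interval (Mib1) left out 1. Mib1, the ubiquitin ligase that lets Delta and Jagged ligands be pulled into the sending cell, had 685 and 559 counts (18.6 and 14.9 TPM), and its ratio was 1.22 (1.09 to 1.36). The adaptor Epn1 had a ratio of 1.00 (0.936 to 1.07).

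Genes that modify the receptor were close to even. Of 6 genes of glycosylation and maturation 4 lay above 0 (median 0.014). Lfng, the fringe glycosyltransferase that tunes receptors towards Delta ligands, was at 115 and 112 TPM (ratio 1.00, 0.943 to 1.07), and Pofut1, which adds the O-fucose that fringe extends, had 195 and 157 counts (ratio 1.23, 0.993 to 1.53). Among 10 regulators of the receptor 6 lay above 0 (median 0.039). Fbxw7, a ubiquitin ligase subunit that marks the cleaved Notch domain for breakdown, had 361 counts in Aβ and 440 in DMSO, a ratio of 0.814 (0.706 to 0.937). Dtx3, of the Deltex family, was at 52.2 and 46.7 TPM (ratio 1.06, 0.971 to 1.16).

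Nuclear cofactors had more genes below 0 than above on counts. The RBPJ complex had 3 of 9 genes above 0 (median -0.0044, but 0.038 on TPM), beside 49.7% of all measured genes. Corepressors had 4 of 12 above 0 (median -0.029, but 0.0075 on TPM). The median of all measured genes on TPM without a pseudocount was 0.038. Rbpj itself (-0.0044), Kat2b (-0.0018) and Hdac1 (-0.0056) were only just below 0. Maml1, a Mastermind coactivator, had 511 and 604 estimated counts, which are fractional, and a ratio of 0.839 (0.744 to 0.946). Maml3 rested on 27 and 36 counts (0.744, 0.434 to 1.26), and the splicing and RBPJ cofactor Snw1, with fractional counts, stood at 1.07 (0.995 to 1.15). Aes, a short Groucho-related corepressor, was the most abundant of its role, with 2652 and 2915 counts (314 and 340 TPM) and a ratio of 0.902 (0.856 to 0.951). Tle2, a Groucho corepressor recruited by Hes proteins, had 242 and 289 counts (0.831, 0.697 to 0.989). Ncor1 had 2421 and 2265 counts (1.06, 1.0007 to 1.12), so its interval only just left out 1. Its implied length, 7985 bases, lies in the longest bin. Of genes in that bin with at least 1000 counts, 22.0% had an interval wholly above 1.

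Of 7 measured receptors and ligands outside the core, 6 had a log2 ratio below 0, beside 6794 of the 13505 measured genes. Dlk2 had one above, and the median was -0.045. Dlk1, Notch4 and Cntn6 were past 1.2-fold on few counts, Dner, Cntn1 and Mfap2 were near even, and 1 interval (Dlk1) left out 1. Cntn1, a contactin described as an alternative Notch ligand in the oligodendrocyte lineage, was far more abundant than any canonical ligand, at 273 and 264 TPM, with a ratio of 0.989 (0.967 to 1.01). Dlk1, a Delta-like protein that lacks the receptor-activating domain, had 52 and 78 counts (4.05 and 5.95 TPM) and a ratio of 0.661 (0.456 to 0.951), the lowest of that role. Notch4 and Dll4, genes of endothelium, were at 0.79 and 1.06 TPM and at 0.03 TPM in both libraries.

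Of 8 other described Notch targets 7 lay below 0 (median -0.065), beside 6794 of the 13505 measured genes. Sox9 (-0.037), Ccnd1 (-0.046) and Nrarp (-0.017) were near even. Only the intervals of Fabp7 and Cdkn1a left out 1, both wholly below it. Fabp7, the fatty acid binding protein of radial glia, had 38411 and 40656 counts (12783 and 13532 TPM) and a ratio of 0.937 (0.924 to 0.9503). The cell cycle inhibitor Cdkn1a had 1223 and 1392 counts (0.871, 0.806 to 0.942). The log2 ratios of Fabp7 and Cdkn1a were -0.094 and -0.197, and -0.061 and -0.188 less the medians of their bins of length. Both genes had more than 1000 counts, a depth at which 11.0% of genes had an interval wholly below 1. Nrarp, a feedback inhibitor of the pathway that Notch itself induces, had 550 and 552 counts (0.988, 0.877 to 1.11) and was chosen after its values were seen. The remaining Hes and Hey family had 4 of 6 measured genes above 0 (median 0.052, but -0.00051 on TPM). Its most abundant member Hes6, which opposes Hes1, had 1195 and 1179 counts (1.01, 0.927 to 1.09), and Hes7 rested on 32 and 20 counts (1.59, 0.880 to 2.93). Neurog2, a proneural factor that Hes proteins repress, had only 16 and 10 counts (1.59, 0.677 to 3.91).

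**Figure D5:**
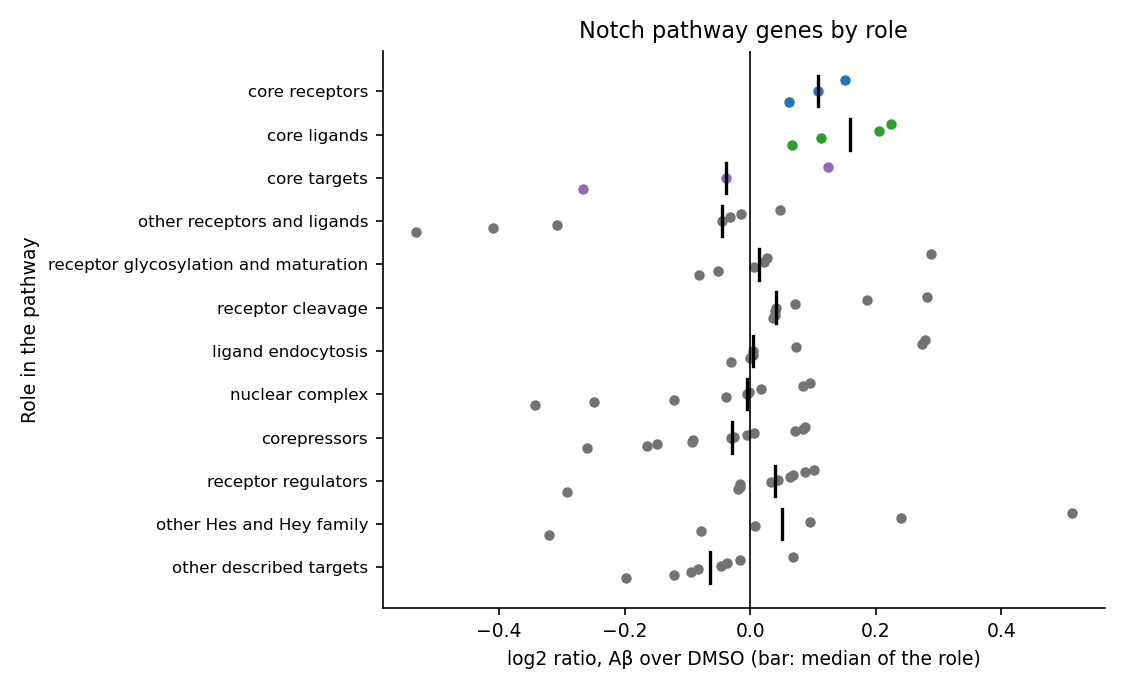
Log2 ratio of Aβ over DMSO for measured genes of the pathway in 9 roles besides the core, with the 10 core genes in colour at the top and a black bar at the median of each role. Core receptors and ligands lie right of 0 (medians 0.11 and 0.16). Other described targets lie mostly left of it (median -0.065), with the counting interval wholly below 1 for 2 of 8. Nrarp and Dtx1 are drawn under both receptor regulators and other described targets.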

How the data were processed

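Total RNA of 2 cultures was made into mRNA libraries with a BGI kit, per the labels' protocols. Bowtie2 and the build Rnor_6.0 come from the submitters' processing notes. Tool versions, the quantifier, the annotation and whether strand was used are not stated in them or in the labels. Values of 3 kinds were used: the estimated counts per gene that the authors deposited without scaling to depth, the TPM values that the authors scaled to the same sum in each library, and the FPKM values that the authors deposited, used for implied lengths. 2 further columns of normalized counts were not used. 13.4% of genes had a fractional count in at least 1 library, and none of the 10 core Notch genes did.

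Groups came from the treatment label. Counts were rounded and scaled to CPM on TMM effective library sizes (edgeR 4.0.16, R 4.3.3), with a pseudocount of 0.5 CPM and a minimum of 1 CPM in either library. Exact intervals (scipy 1.17.1) are conditional on the sum of both counts. They were tried only on simulated Poisson counts, the model they assume. That trial checks the calculation and holds no variation between cultures. Implied length is count per FPKM with the summed counts as library size, and it is not the full length of a transcript. Reads are not independent molecules, so intervals cover counting error only.

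The 10 genes, the pathway list and the marker lists were chosen with earlier results of these data known. All 10 were named, and from each role of the wider list every gene at 10 CPM or more with an interval that leaves out 1, the gene of highest TPM and the gene of largest log2 ratio in size among those at 1 CPM or more. 1 gene that this rule names is not reported here. Other genes named were chosen after their values were seen. Alternatives were scaling by total count or DESeq2 1.42.0 size factors, TPM, FPKM, no pseudocount or one of 5 CPM, no minimum, and a minimum of 10 CPM, and, chosen after seeing the data, removal of the length trend.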

Additional observations from a re-analysis of the deposited data

How the results depend on the processing

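Across 9 alternatives, 86 values of single core Notch genes were computed, and 0 had another sign than the value reported. The log2 ratio of Dll1 ranged from 0.21 to 0.26, of Notch1 from 0.071 to 0.15, of Notch2 from 0.025 to 0.10 and of Hes1 from -0.28 to -0.18. Hey1 came closest to 0, at -0.0063 with the length trend removed. With a minimum of 10 CPM only 6 of the 10 genes were left, of which 5 lay above 1 in place of 8, because Jag1, Jag2, Hes1 and Hes5 did not reach that level. The median of the 10 genes was 0.092 with the length trend removed. TPM, with a pseudocount of 0.5, moved the median of all genes to 0.037 and the share of all genes above 0 from 49.7% to 63.2%, and values on that scale carry this shift. No paired analysis was possible because each condition had 1 library. Depth limits the low genes: intervals of Jag1, Jag2, Hes1 and Hes5 span more than 1.5-fold from end to end.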

Other observations

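Counts and TPM gave different ratios for Dtx4 and Hes7. Dtx4, a Deltex gene named after its values were seen, had 641 counts in Aβ and 643 in DMSO, a ratio of 0.989, but 15.2 and 11.3 TPM, a TPM ratio of 1.34. The length implied by its count and FPKM was 3978 bases in Aβ and 5234 bases in DMSO. Among 9613 genes with whole counts of at least 100 in both libraries, the TPM ratio departed from the count ratio by 1.2-fold or more for 7 genes (0.0728%), a limit set after the data were seen, after the shift of 0.038 in log2 that TPM gave to the median gene. Hes7, below that depth, had more counts in Aβ (32 against 20) and a lower TPM (2.34 against 2.58), with implied lengths of 1291 and 716 bases. For the 10 core Notch genes the implied length of the libraries differed by at most 2.25%.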
